A study of Mus musculus with 8 samples.

Results

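The Toll-like receptors and the proteins they depend on were examined in bulk RNA-seq of splenic B cells from mice that carry a human PRMT5 transgene, a human TCL1 transgene or both. The genes were chosen by symbol and comprise the receptors Tlr1, Tlr2, Tlr4, Tlr6, Tlr7 and Tlr9, the receptor-like protein Cd180, the receptor chaperone Unc93b1, and the signaling proteins Myd88 and Irak4. All 10 symbols are rows of the deposited count matrix, which holds 24902 symbols. Of these 10, 9 had a value in every library and passed the filter on low counts, and Tlr9 had no value in 1 library.

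Toll-like receptors bind conserved microbial molecules and, in some settings, nucleic acids released by dying cells. Tlr1, Tlr2, Tlr4 and Tlr6 act at the cell surface, whereas Tlr7 and Tlr9 act in endosomes, where they sense single-stranded RNA and unmethylated CpG DNA after Unc93b1 has carried them there from the endoplasmic reticulum. On ligand binding these receptors recruit the adaptor Myd88 and the kinase Irak4, which pass the signal to NF-κB and interferon regulatory factors. In B cells, Toll-like receptor signals combine with those of the B-cell receptor, and activating mutations of MYD88 occur in human chronic lymphocytic leukemia (CLL) and lymphoma.

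The 8 libraries came from C57BL/6N mice at early removal criteria (ERC), of which 4 were Eµ-PRMT5, 3 carried both transgenes (Eµ-PRMT5/TCL1) and 1 was Eµ-TCL1. The study's methods instead give a C57BL/6J background where they describe the cross with Eµ-TCL1 mice. The labels name the genotypes Eµ-hPRMT5, Eµ-hPRMT5/hTCL1 and Eµ-hTCL1, and ages are not given there. By the study's methods, a VH promoter with the IgH Eµ enhancer drives PRMT5 in immature and mature B cells, and Eµ-TCL1 is a mouse model of CLL. Every library therefore carries at least 1 of the transgenes, WT mice were not analysed here, and the cells were taken by pan-B isolation from the spleen. The title of Eµ-PRMT5 mouse 2 carries the identifier that the study's methods give to a transgenic founder. How the other mice were related is not given in the sources used here, and the p-values measure the spread between these mice only. The Eµ-TCL1 group, with 1 mouse, has no spread of its own. Tests against it ask only whether that mouse lies outside the spread within the Eµ-PRMT5 and Eµ-PRMT5/TCL1 groups.

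Counts on genes ran from 3356297 in the Eµ-TCL1 library to 10252426 in Eµ-PRMT5 mouse 4. Levels are given as CPM, in which counts are brought to a common total, after scaling by edgeR's TMM factors, which adjust for differences in composition between libraries. All 11 B cell markers (Cd79a, Pax5 and others) had counts in every library, with summed levels of 1884 to 6059 CPM in Eµ-PRMT5, 2987 to 7208 CPM in Eµ-PRMT5/TCL1 and 4102 CPM in Eµ-TCL1. Markers of other cells were also counted. The summed neutrophil markers reached 9192 CPM in Eµ-PRMT5/TCL1 mouse 1 and the summed monocyte and macrophage markers 7433 CPM in the same mouse, so several genes below are set beside these sums. In such bulk libraries, fewer cells of a type and less RNA per cell cannot be told apart.

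With a Benjamini-Hochberg adjusted p below 0.05 and more than a 4-fold change required, edgeR's quasi-likelihood test called 0 of the 10 genes in any of the 3 comparisons. It also called 0 of all 13173 tested genes in each of them, a background of 0.0%, and DESeq2 called 4, 18 and 16 genes, none of them a member. Tlr4 was the 1 member of the 9 tested with an unadjusted p under 0.05 between the replicated groups. It was higher in the double transgenic mice, as 0.957% of all tested genes were at that level (1.21% were lower, and 2.17% were either). Tlr1 was the 1 member at that level when the Eµ-PRMT5 group was set against the Eµ-TCL1 mouse, and it was higher in the former, as 1.96% of all tested genes were (4.82% lower, 6.78% either). For the double transgenic group against that mouse the count was 0 members, beside 1.75% of all tested genes higher, 4.33% lower and 6.09% either. That count stayed at 0 in 5 of 15 other settings and reached 2 with only the groups compared. For 0 of the 9 members with a value in every library did the Eµ-PRMT5/TCL1 and the Eµ-PRMT5 mice separate without overlap, which 1.35% of all tested genes did with Eµ-PRMT5/TCL1 higher and 1.59% with it lower.

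**Figure D1:**
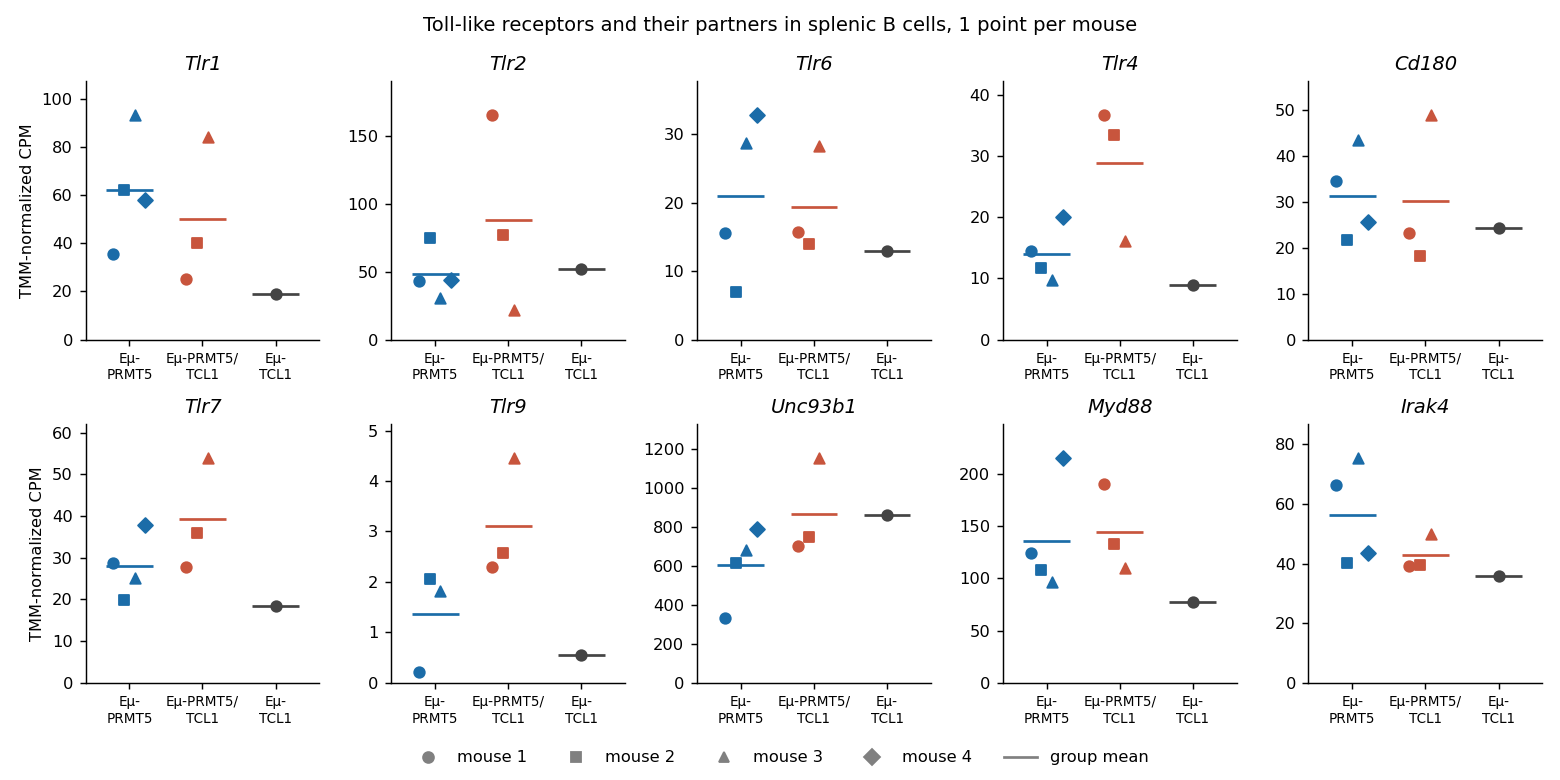
TMM-normalized CPM (vertical axes, each from 0) of the 10 genes in the mice of each genotype (4, 3 and 1, left to right), with 1 point per mouse, the point shape giving the mouse number and the bar the group mean; Tlr9 has no value in Eµ-PRMT5 mouse 4. The values of Eµ-PRMT5/TCL1 and Eµ-PRMT5 overlap in every panel except that of Tlr9, where 1 value is missing, and the Eµ-TCL1 mouse has the lowest point for Tlr1, Tlr4, Tlr7, Myd88 and Irak4.

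Tlr1, Tlr2 and Tlr6 form 1 receptor system at the cell surface, in which Tlr2 pairs with Tlr1 to recognize triacylated lipopeptides and with Tlr6 to recognize diacylated ones. Tlr1 and Tlr6 are neighbors on chromosome 5 of GRCm38, both on the minus strand, with Tlr1 from 64924679 to 64933563 and Tlr6 from 64952031 to 64960097. Their sequences are alike over part of the coding region, so that 13.6% of the 50-base windows of Tlr1 transcripts occur identically in Tlr6, and 12.3% of those of Tlr6 occur in Tlr1. The longest stretch without a difference spans 229 bases, from base 1468 of the 2385 coding bases of Tlr1 and from base 1507 of the 2418 of Tlr6. The following 150 bases show the start of that stretch, from chr5:64925676-64925825 for Tlr1 and chr5:64953967-64954116 for Tlr6 in GRCm38, read 5′ to 3′ on the minus strand. They are printed because a read from here cannot be assigned to 1 of the genes unless it reaches a base that differs, and the capital marks the 1 base that differs in this window.
Tlr1: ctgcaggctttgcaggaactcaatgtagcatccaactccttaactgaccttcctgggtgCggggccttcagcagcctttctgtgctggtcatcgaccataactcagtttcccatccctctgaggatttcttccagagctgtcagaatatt
Tlr6: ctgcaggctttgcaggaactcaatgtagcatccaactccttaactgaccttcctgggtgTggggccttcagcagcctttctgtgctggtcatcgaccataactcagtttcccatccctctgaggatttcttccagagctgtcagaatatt
How reads that match both genes were counted is not given in the sources used here, and the levels of Tlr1 and Tlr6 are uncertain to that extent.

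Tlr1 measured 35.5, 62.1, 93.5 and 58.0 CPM in Eµ-PRMT5 mice 1 to 4, 25.3, 40.3 and 84.2 CPM in Eµ-PRMT5/TCL1 mice 1 to 3, and 18.9 CPM in Eµ-TCL1. Mouse 3 was the highest of both replicated groups, and the Eµ-TCL1 mouse was below all the others. The means were 62.3 ± 23.9 CPM (SD, n = 4) in Eµ-PRMT5 and 49.9 ± 30.6 CPM (SD, n = 3) in Eµ-PRMT5/TCL1, with a log2 fold change of -0.32 (SE 0.46) between them, where SE is the standard error. Mice are given in the same order for the genes below. Against the Eµ-TCL1 mouse, the log2 fold change of the Eµ-PRMT5 mice was 1.72 (SE 0.77, adjusted p = 0.709 and unadjusted p = 0.0451, edgeR), and that of the Eµ-PRMT5/TCL1 mice was 1.40 (SE 0.77). All 7 other mice were above the Eµ-TCL1 mouse for Tlr1. The unadjusted p of the first of these was 0.0607 and 0.0816 without mouse 2 or mouse 3 of the Eµ-PRMT5 group, 0.0568 without Eµ-PRMT5/TCL1 mouse 2, 0.0733 with upper-quartile scaling and 0.0870 with scaling by library size only.

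Tlr2, on chromosome 3 from 83836272 to 83841767, measured 43.2, 74.7, 30.3 and 43.6 CPM in Eµ-PRMT5, 165.3, 77.1 and 21.97 CPM in Eµ-PRMT5/TCL1, and 51.9 CPM in Eµ-TCL1. The double transgenic group held both the highest and the lowest value of the 8 mice, which lay 7.52-fold apart. Its log2 fold change over Eµ-PRMT5 was 0.88 (SE 0.55, adjusted p = 1.000, edgeR). Without Eµ-PRMT5/TCL1 mouse 1 this value was 0.05, and without mouse 3 of that group it was 1.34 (unadjusted p = 0.0141, adjusted p = 1.000, edgeR). Of all tested genes, 85.7% had a smaller SD of log2 CPM within groups than Tlr2, whose SD was 1.01 against a median of 0.60. In Eµ-PRMT5/TCL1 mice 1 to 3 the summed monocyte and macrophage markers were 7433, 2807 and 1024 CPM, in the same order as Tlr2. This order did not hold among the Eµ-PRMT5 mice, where the sums were 1197, 1146, 1334 and 3874 CPM and mouse 2 was the highest for Tlr2. The part of these cells in the level of Tlr2 was not tested.

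Tlr6 measured 15.6, 6.97, 28.7 and 32.9 CPM in Eµ-PRMT5, 15.7, 14.0 and 28.3 CPM in Eµ-PRMT5/TCL1, and 13.0 CPM in Eµ-TCL1. The lowest and the highest value of the replicated groups were both in Eµ-PRMT5 mice, and the log2 fold change was -0.12 (SE 0.55). Per kb of exon, Tlr1 was above Tlr6 in every mouse, from 1.62-fold in the Eµ-TCL1 mouse to 9.92-fold in Eµ-PRMT5 mouse 2. The balance of Tlr2 to Tlr1 per kb varied more widely. It was 1.35, 1.34, 0.36 and 0.83 in the Eµ-PRMT5 mice, 7.27, 2.12 and 0.29 in the Eµ-PRMT5/TCL1 mice, and 3.05 in the Eµ-TCL1 mouse, so either partner could be the more abundant within each replicated group.

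Tlr4 is the receptor for lipopolysaccharide, which it binds together with Ly96 (MD-2), and lies on chromosome 4 from 66827584 to 66930284. It measured 14.4, 11.7, 9.80 and 19.95 CPM in Eµ-PRMT5, 36.7, 33.5 and 16.1 CPM in Eµ-PRMT5/TCL1, and 8.92 CPM in Eµ-TCL1. Eµ-PRMT5/TCL1 mice 1 and 2 were above all the others, whereas mouse 3 lay below Eµ-PRMT5 mouse 4, so the groups overlapped by 1 mouse. The means were 14.0 ± 4.41 CPM (SD, n = 4) and 28.8 ± 11.1 CPM (SD, n = 3). The log2 fold change of 1.04 (SE 0.46) was the highest of the 9 tested members in this comparison, with an unadjusted p of 0.0419 and an adjusted p = 1.000 (edgeR). Against the Eµ-TCL1 mouse, the Eµ-PRMT5/TCL1 mice had a log2 fold change of 1.69 (SE 0.78, unadjusted p = 0.0521, adjusted p = 0.778, edgeR) and the Eµ-PRMT5 mice one of 0.65 (SE 0.72). The unadjusted p of the first of these was under 0.05 in several other settings, such as 0.0177 with DESeq2 and 0.0333 without Eµ-PRMT5/TCL1 mouse 3, and the lowest adjusted p was 0.222, with only the groups compared.

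The unadjusted p of Tlr4 between the replicated groups ran from 0.0208 to 0.169 when 1 mouse was left out. It was over 0.05 without Eµ-PRMT5 mouse 1 (0.0549), 2 (0.0920) or 3 (0.0724) and without Eµ-PRMT5/TCL1 mouse 1 (0.169) or 2 (0.135). Cd14, the co-receptor that hands lipopolysaccharide to Tlr4 and a marker of monocytes, measured 399.2 and 169.1 CPM in the same Eµ-PRMT5/TCL1 mice 1 and 2, 9.07 CPM in mouse 3 of that group, and 12.1 to 70.0 CPM in the Eµ-PRMT5 mice. Cd14 also had an unadjusted p under 0.05 (log2 fold change 2.05, standard error 0.85, adjusted p = 1.000, edgeR). Summed neutrophil markers were 9192, 5186 and 678.1 CPM in Eµ-PRMT5/TCL1 mice 1 to 3. In Eµ-PRMT5 mice 1 to 4 they were 2791, 2278, 493.8 and 5498 CPM. Within each group this is the order of Tlr4. It did not hold across the groups, since Eµ-PRMT5 mouse 4 had a higher sum than Eµ-PRMT5/TCL1 mouse 2 but less Tlr4. Mpo (3498 CPM) and Ngp (2316 CPM) made up much of the neutrophil sum in Eµ-PRMT5/TCL1 mouse 1. Both were highest in that mouse, as were Camp, Ltf, Elane, Prtn3 and Cd177. The rest of the list peaked in Eµ-PRMT5 mice, with S100a8, S100a9, Mmp8 and Cxcr2 highest in mouse 4 and Retnlg in mouse 2. The part of monocytes and neutrophils in the level of Tlr4 was not tested.

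Cd180 (RP105) resembles Tlr4 outside the cell but lacks its signaling domain, is found on B cells, and pairs with Ly86 (MD-1) as Tlr4 does with Ly96. The gene lies on chromosome 13 from 102693558 to 102739629, and 4.04% of its exon bases overlap exons of Mast4 on the other strand. It measured 34.5, 21.7, 43.5 and 25.6 CPM in Eµ-PRMT5, 23.3, 18.3 and 49.0 CPM in Eµ-PRMT5/TCL1, and 24.3 CPM in Eµ-TCL1. Eµ-PRMT5/TCL1 mouse 3 was the highest and mouse 2 the lowest of all, and the log2 fold change between the replicated groups was -0.05 (SE 0.45). The order of these 3 mice for Cd180 was not that for Tlr4. Per kb, Tlr4 was 1.28-fold and 1.48-fold the level of Cd180 in Eµ-PRMT5/TCL1 mice 1 and 2, and 0.18-fold to 0.63-fold in the 6 other mice. The summed B cell markers were 7208 CPM in the mouse with the highest Cd180 level and 4525 CPM in the one with the lowest, while the lowest sum, 1884 CPM, was in Eµ-PRMT5 mouse 4. With scaling by library size only, Eµ-PRMT5 mouse 3 had the highest Cd180 level (47.9 CPM, beside 47.7 CPM in Eµ-PRMT5/TCL1 mouse 3).

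The partner proteins of these receptors were measured in every library. Ly86 was at 234.4, 204.1, 437.9 and 216.8 CPM in Eµ-PRMT5, 259.2, 505.7 and 620.2 CPM in Eµ-PRMT5/TCL1, and 207.1 CPM in Eµ-TCL1, with a log2 fold change of 0.76 (SE 0.41, adjusted p = 1.000, edgeR) between the replicated groups. It was well above Cd180 per kb in every mouse, Cd180 being 0.0292-fold to 0.119-fold its level. Ly96 ran from 5.65 to 15.02 CPM in Eµ-PRMT5 and from 12.3 to 17.1 CPM in Eµ-PRMT5/TCL1 mice, and was at 6.76 CPM in Eµ-TCL1.

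Tlr7, the endosomal receptor for single-stranded RNA, lies on the X chromosome from 167304929 to 167330558. It measured 28.6, 19.95, 25.1 and 37.9 CPM in Eµ-PRMT5, 27.7, 35.9 and 53.9 CPM in Eµ-PRMT5/TCL1, and 18.4 CPM in Eµ-TCL1. Eµ-PRMT5/TCL1 mouse 3 was the highest and the Eµ-TCL1 mouse the lowest of the 8, while the other mice of the replicated groups were interleaved. Xist, the RNA of the inactive X chromosome, was at 71.4 to 122.6 CPM in 5 mice, at 1.596 CPM in Eµ-PRMT5 mouse 3, and without a value in both of these extremes. It was chosen after its values were seen, and the part of sex in the level of Tlr7 was not tested. The log2 fold change was 0.49 (SE 0.39, adjusted p = 1.000, edgeR) between Eµ-PRMT5/TCL1 and Eµ-PRMT5, and 1.09 (SE 0.65) and 0.60 (SE 0.61) for these groups against the Eµ-TCL1 mouse. Tlr7 was steadier between mice than most genes, since 25.3% of all tested genes had a smaller SD of log2 CPM within groups.

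Tlr9, the endosomal receptor for CpG DNA, lies on chromosome 9 from 106222598 to 106226883. It was near the limit of detection, with 1, 13 and 8 counts in Eµ-PRMT5 mice 1 to 3, no value in Eµ-PRMT5 mouse 4, 14, 18 and 29 counts in Eµ-PRMT5/TCL1 mice 1 to 3, and 2 counts in the Eµ-TCL1 mouse. The levels were 0.20, 2.06 and 1.82 CPM, then 2.30, 2.57 and 4.46 CPM, and 0.54 CPM. All 3 values of Eµ-PRMT5/TCL1 mice lay above the others, but counting error alone gave exact Poisson 95% intervals of 1.26 to 3.85 CPM for Eµ-PRMT5/TCL1 mouse 1 and 1.10 to 3.52 CPM for Eµ-PRMT5 mouse 2, which overlap. In a fit of the 7 libraries with a value (13261 genes), the log2 fold change was 1.17 (SE 0.84, unadjusted p = 0.191, adjusted p = 0.917, edgeR). Against the Eµ-TCL1 mouse, whose 2 counts lie under the floor of 3 and allow 0.07 to 1.95 CPM, the fitted log2 fold changes of 1.31 (SE 1.497) and 2.48 (SE 1.505) for Eµ-PRMT5 and Eµ-PRMT5/TCL1 depend on the prior count and bound nothing. What the missing value in Eµ-PRMT5 mouse 4 stands for is not stated in the sources used here.

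Unc93b1, on chromosome 19 from 3935186 to 3949340, had the highest level of the members per kb of exon. It measured 331.0, 616.2, 679.6 and 786.7 CPM in Eµ-PRMT5, 700.6, 747.6 and 1154 CPM in Eµ-PRMT5/TCL1, and 860.0 CPM in Eµ-TCL1. Eµ-PRMT5 mouse 1 stood below the rest and Eµ-PRMT5/TCL1 mouse 3 above them, and all 4 Eµ-PRMT5 mice were below the Eµ-TCL1 mouse, as for 24.4% of all tested genes. The log2 fold change was 0.52 (SE 0.40, adjusted p = 1.000, edgeR) between the replicated groups, -0.51 (SE 0.57, adjusted p = 0.830) for Eµ-PRMT5 against the Eµ-TCL1 mouse, and 0.01 (SE 0.61) for Eµ-PRMT5/TCL1 against it. The sign of the last value turned with other scaling (-0.08 with upper-quartile scaling and -0.21 with library size only). Unc93b1 was 15.6-fold to 63.0-fold above its cargo Tlr7 per kb, with the lowest ratio in Eµ-PRMT5 mouse 1 and the highest in the Eµ-TCL1 mouse.

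Myd88, the adaptor used by all of these receptors except Cd180, lies on chromosome 9 from 119335934 to 119341411, and 11.3% of its exon bases overlap exons of Acaa1a on the other strand. It measured 124.6, 107.8, 96.2 and 215.2 CPM in Eµ-PRMT5, 190.0, 132.7 and 109.6 CPM in Eµ-PRMT5/TCL1, and 77.6 CPM in Eµ-TCL1. The highest were Eµ-PRMT5 mouse 4, then mouse 1 of the double transgenic group, and these were also the mice with the highest sums of monocyte and macrophage markers (3874 and 7433 CPM), of neutrophil markers (5498 and 9192 CPM) and of erythroid markers (280.2 and 261.0 CPM). The part of these cells in the level of Myd88 was not tested. The means of 135.9 ± 54.1 CPM (SD, n = 4) and 144.1 ± 41.4 CPM (SD, n = 3) gave a log2 fold change of 0.08 (SE 0.37, adjusted p = 1.000, edgeR). Against the Eµ-TCL1 mouse it was 0.81 (SE 0.58, adjusted p = 0.740) for Eµ-PRMT5 and 0.89 (SE 0.59, adjusted p = 0.788) for Eµ-PRMT5/TCL1.

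Irak4, the kinase that joins Myd88 in the signaling complex, lies on chromosome 15 from 94543643 to 94581815, and 7.87% of its exon bases overlap exons of Twf1 on the other strand. It measured 66.4, 40.1, 75.5 and 43.5 CPM in Eµ-PRMT5, 39.0, 39.6 and 49.8 CPM in Eµ-PRMT5/TCL1, and 35.7 CPM in Eµ-TCL1. Irak4 was the steadiest of the 9 tested members within groups, with an SD of 0.37 on the log2 scale that 17.2% of all tested genes went below. Its log2 fold change of -0.39 (SE 0.36, adjusted p = 1.000, edgeR) was the lowest of the members between Eµ-PRMT5/TCL1 and Eµ-PRMT5. All 4 Eµ-PRMT5 and all 3 Eµ-PRMT5/TCL1 mice were above the Eµ-TCL1 mouse for Irak4, with log2 fold changes of 0.66 (SE 0.55) and 0.26 (SE 0.55).

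**Figure D2:**
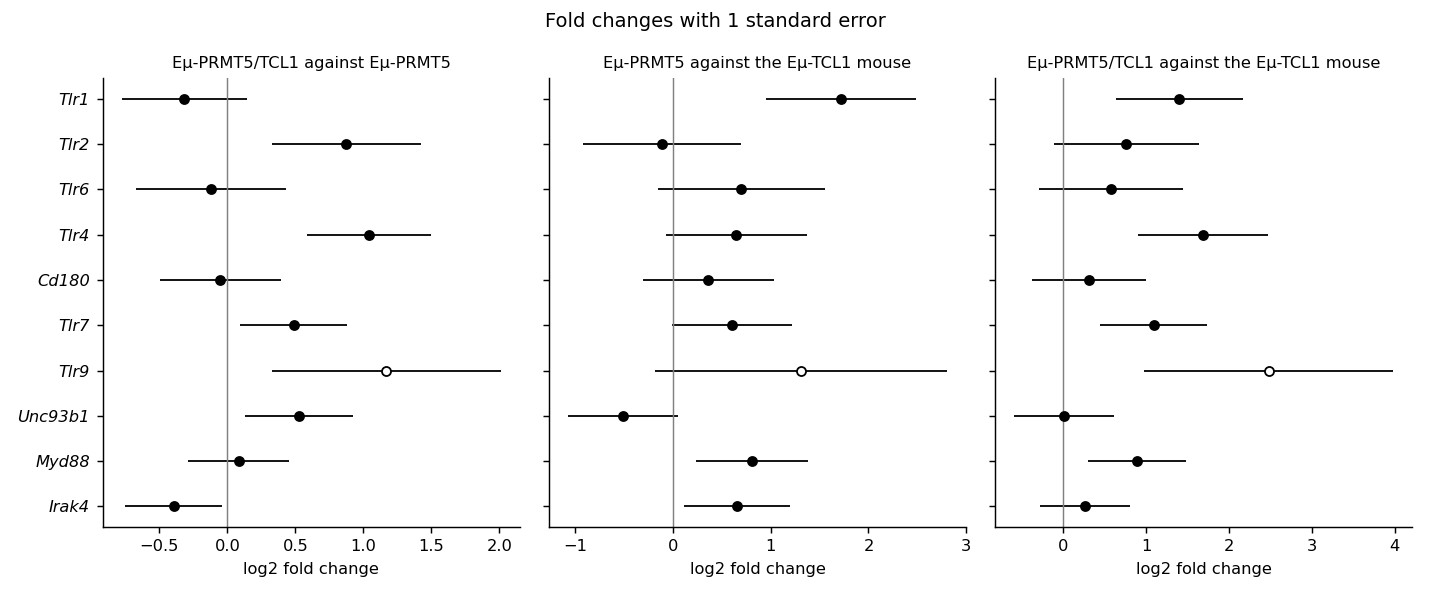
Log2 fold change (horizontal axes, each with its own range) of the 10 genes in the 3 comparisons, with bars of 1 standard error from edgeR's quasi-likelihood fit; the open point is Tlr9, fitted in 7 libraries. Tlr4 (1.04) has the highest value of the 9 genes tested in all 8 libraries in the left panel, and the 9 values of the right panel are all above 0, from 0.01 for Unc93b1 to 1.69 for Tlr4.

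Levels were compared between genes per kb of exon, because longer transcripts collect more counts. Unc93b1 led with 242.3 ± 76.4 CPM per kb (SD, n = 8), followed by Myd88 with 51.1 ± 18.4, and each was above the next gene in all 8 mice. Tlr2 (21.1 ± 15.1), Tlr1 (15.6 ± 8.08), Irak4 (9.70 ± 2.89), Tlr7 (7.58 ± 2.83) and Cd180 (6.66 ± 2.47) came next, all in CPM per kb, and each of the first 4 was above its successor in 5 of 8 mice only, so these neighbors did not differ beyond their spread. Cd180 was above Tlr6 (5.21 ± 2.48) in 7 of 8 mice, and Tlr6 above Tlr4, which ran from 1.61 to 6.61 CPM per kb, in 5 of 8. Tlr9 was the lowest in every mouse that had a value for it, at 0.57 ± 0.40 CPM per kb (SD, n = 7). Among the receptors of the member list, the surface receptor Tlr2 and its partner Tlr1 thus had the highest mean levels per length in these libraries and Tlr9 the lowest.

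**Figure D3:**
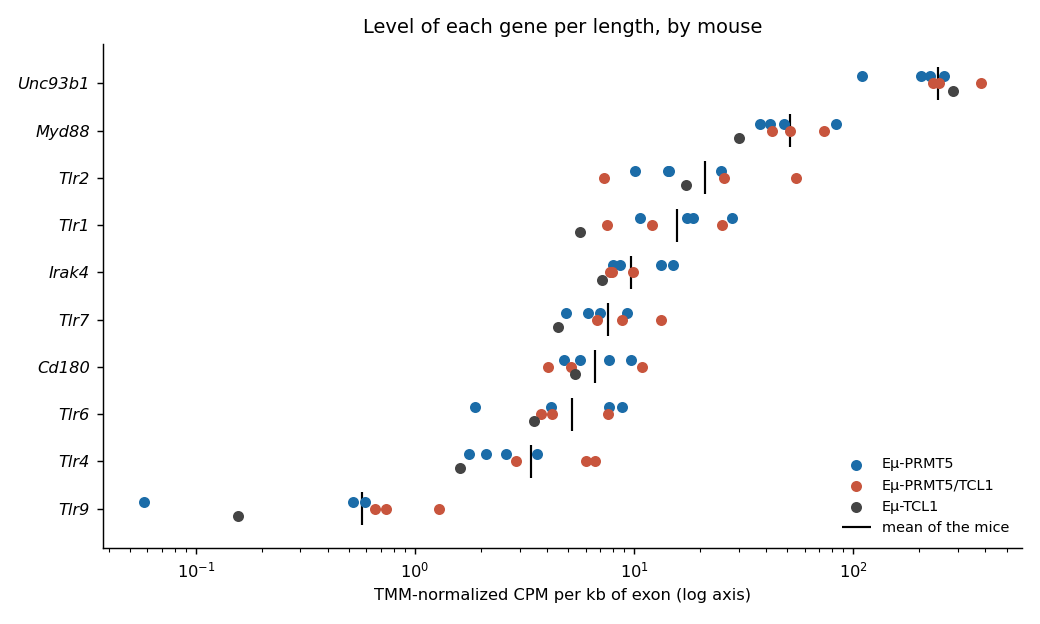
TMM-normalized CPM per kb of exon (log axis) of the 10 genes, ordered by their mean over the mice (black bar), with 1 point per mouse colored by genotype. Unc93b1 (mean 242.3) and Myd88 (51.1) stand clear of the rest, the middle genes overlap, and Tlr9 (0.57) lies below the others.

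A comparison with the Eµ-TCL1 mouse rests on 1 animal. It had the lowest level of the 8 mice for 5 of the 9 members with a value in every library, namely Tlr1, Tlr4, Tlr7, Myd88 and Irak4, whereas it was below the 7 other mice for 14.2% of all tested genes and above them for 21.3%. It was the highest for 0 of the 9 members. With scaling by library size only, the count was 3 of 9 (Tlr1, Tlr4 and Myd88) against 9.12% of all tested genes. The median log2 fold change of the 9 members was 0.65 for Eµ-PRMT5 and 0.76 for Eµ-PRMT5/TCL1 against the Eµ-TCL1 mouse, beside medians of 0.04 and -0.07 over all tested genes. Both comparisons share that mouse, so they are not independent of each other. Positive values were found for 7 of 9 members in the first (51.9% of all tested genes) and 9 of 9 in the second (46.6%). The library of this mouse had the fewest counts of the series, and its sums of monocyte and neutrophil markers, 1100.0 and 691.9 CPM, were near the low end of the other mice.

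Between Eµ-PRMT5/TCL1 and Eµ-PRMT5 the median log2 fold change of the 9 members was 0.08, beside -0.09 over all tested genes, with 5 values above 0 and 4 below (40.6% of all tested genes were above 0). The members did not all peak in the same mouse. Eµ-PRMT5/TCL1 mouse 1 had the highest level of Tlr2 and Tlr4, Eµ-PRMT5/TCL1 mouse 3 that of Cd180, Tlr7 and Unc93b1, Eµ-PRMT5 mouse 3 that of Tlr1 and Irak4, and Eµ-PRMT5 mouse 4 that of Tlr6 and Myd88. Of all tested genes, 6.38%, 5.77%, 12.7% and 20.1% were highest in these 4 mice, in that order. With scaling by library size only, these mice were the highest for 3, 2, 4 and 0 members, where TMM gave 2, 3, 2 and 2. Eµ-PRMT5/TCL1 mouse 1 had the highest sums of neutrophil and of monocyte and macrophage markers, and Eµ-PRMT5/TCL1 mouse 3 the highest sum of B cell markers with the lowest of monocyte and macrophage markers (1024 CPM). The median SD of log2 CPM within groups was 0.52 for the 9 members and 0.60 for all tested genes.

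**Figure D4:**
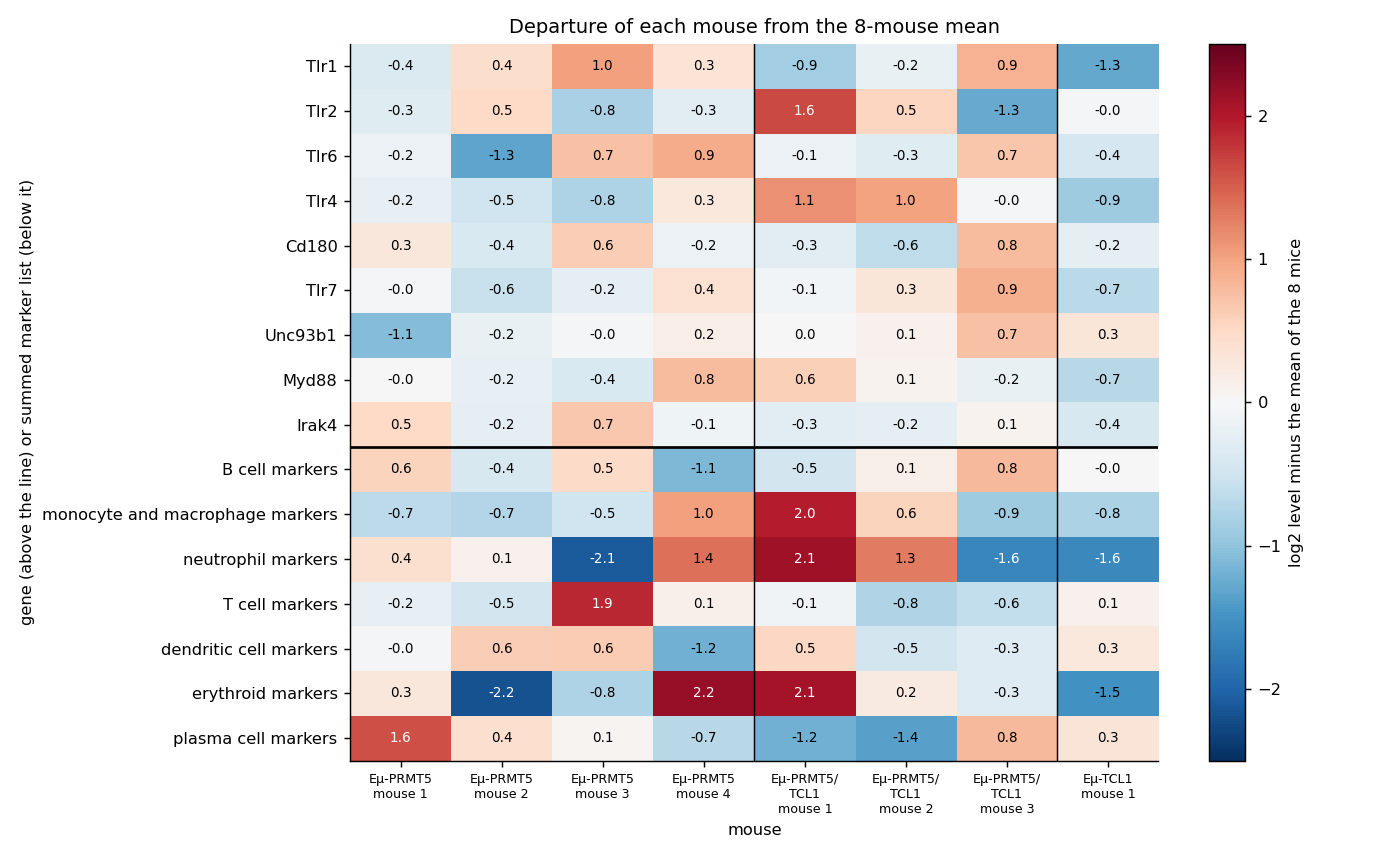
Log2 level of the 9 members measured in every library (above the line) and log2 summed CPM of 7 marker lists (below it) in each mouse, as the departure from the mean of the 8 mice (color scale and printed values). In Eµ-PRMT5/TCL1 mouse 1, Tlr2 (1.64) and Tlr4 (1.14) stand high, as do the monocyte (1.97), neutrophil (2.13) and erythroid sums (2.08). In Eµ-PRMT5/TCL1 mouse 3, Tlr1 (0.88), Tlr6 (0.70), Cd180 (0.79), Tlr7 (0.88) and Unc93b1 (0.72) stand high, as do the B cell (0.81) and plasma cell sums (0.81). The plasma cell sum of that mouse holds mainly Jchain (2096 CPM) and Mzb1 (667.8 CPM). The other markers of that list did not stand high. Xbp1, Irf4, Prdm1 and Sdc1 reached at most 518.0, 110.2, 49.47 and 35.5 CPM in Eµ-PRMT5/TCL1 mice. Their Eµ-PRMT5 means were 1006, 182.7, 59.38 and 103.3 CPM.

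The other marker lists were all represented to some degree. Of the 12 monocyte and macrophage markers, 8 to 12 had counts in a library, and the sums ran from 1146 to 3874 CPM in Eµ-PRMT5 and 1024 to 7433 CPM in Eµ-PRMT5/TCL1 mice, with none listed at 0, and C1qa, C1qb, C1qc and Cd163 had no value in Eµ-PRMT5 mouse 1. The 12 neutrophil markers all had counts in 7 libraries and 11 in the eighth. T cell markers (8 genes) summed to 78.8 to 400.5 CPM in Eµ-PRMT5, 64.2 to 102.8 CPM in Eµ-PRMT5/TCL1 and 117.3 CPM in Eµ-TCL1, with the highest sum in Eµ-PRMT5 mouse 3, the mouse highest for Tlr1 and Irak4. Dendritic cell markers (8 genes), which matter here because dendritic cells express Tlr7 and Tlr9, summed to 33.8 to 119.5, 56.1 to 110.8 and 93.3 CPM in these 3 groups. Erythroid markers (6 genes) summed to 13.8 to 280.2, 49.6 to 261.0 and 21.6 CPM, with Klf1 at 0 in Eµ-PRMT5 mouse 1, and plasma cell markers (6 genes) to 1232 to 6033, 771.4 to 3475 and 2478 CPM. The part of these cells in the levels of the members was not tested.

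The wider pathway was followed with 59 further genes, of which 54 were tested. By the adjusted p, 0 passed in any comparison. At an unadjusted p under 0.05, Cd14 was higher and Cd69 lower in the double transgenic group than in Eµ-PRMT5. Over the Eµ-TCL1 mouse, Cnpy3 and Tnf were higher in both replicated groups, and Cd36 was lower in the double transgenic group. These are 2, 2 and 3 of 54 genes, beside 2.17%, 6.78% and 6.09% of all tested genes, and they ran from 0 to 5, 1 to 4 and 2 to 10 under other settings. The median log2 fold changes of the 54 genes were 0.03, 0.40 and 0.46 in these comparisons, beside -0.09, 0.04 and -0.07 over all tested genes.

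Among the other receptors, Tlr13, a sensor of bacterial ribosomal RNA, ran from 12.6 to 60.8 CPM in Eµ-PRMT5 and from 18.8 to 80.0 CPM in Eµ-PRMT5/TCL1 mice, where mouse 1 was the highest, and was at 11.9 CPM in Eµ-TCL1. Tlr8 did not exceed 10.26 CPM in any mouse. The double-stranded RNA receptor Tlr3 had a value in 4 libraries and the flagellin receptor Tlr5 in 2, at most 6.16 and 2.28 CPM.

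The list for receptor folding and processing held 7 genes, all tested. Between the replicated groups, 6 of them had log2 fold changes above 0, beside 40.6% of all tested genes. The median of the 7 was 0.04, beside -0.09 over all tested genes. Cnpy3, a chaperone that assists Hsp90b1 in folding Toll-like receptors, was at 202.3, 193.6, 168.5 and 146.3 CPM in Eµ-PRMT5, 260.7, 161.6 and 228.0 CPM in Eµ-PRMT5/TCL1, and 70.6 CPM in Eµ-TCL1. The Eµ-TCL1 mouse was below all 7 others, with log2 fold changes of 1.33 (SE 0.51, adjusted p = 0.709, edgeR) and 1.62 (SE 0.53, adjusted p = 0.778) for the Eµ-PRMT5 and Eµ-PRMT5/TCL1 mice over it. Hsp90b1 itself, the chaperone gp96, ran from 647.2 to 1936 CPM in Eµ-PRMT5 and from 968.8 to 1649 CPM in Eµ-PRMT5/TCL1 mice, above the 579.1 CPM of the Eµ-TCL1 mouse. Slc15a4, an endolysosomal transporter needed for Tlr7 and Tlr9 responses, had a log2 fold change of 0.49 (SE 0.33) between the replicated groups.

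Of the adaptors other than Myd88, Tirap, which bridges Tlr2 and Tlr4 to Myd88, had a log2 fold change of -0.56 (SE 0.43) and Ticam1, the Trif adaptor of Tlr3 and Tlr4, one of 0.75 (SE 0.44) for Eµ-PRMT5/TCL1 over Eµ-PRMT5. Downstream of Irak4, the values were -0.62 (SE 0.44) for the kinase Irak1, 0.27 (SE 0.35) for Irak2, and -0.51 (SE 0.54) for the ubiquitin ligase Traf6. Irak3, an inhibitory member of the Irak family, was at -0.46 (SE 0.55). The transcription factors Irf5 and Irf7, which act below Myd88, were at 0.46 (SE 0.34) and 0.69 (SE 0.54). In the kinase and ubiquitin ligase list, 10 of 14 tested genes were below 0, as were 7823 of all 13173 tested genes. The median of the list was -0.09, beside -0.09 over all tested genes. Of these 14 genes, 0 had an unadjusted p under 0.05.

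Among target genes induced by the pathway, Tnf was at 2.64, 6.17, 3.19 and 7.495 CPM in Eµ-PRMT5, 8.53, 13.3 and 9.53 CPM in Eµ-PRMT5/TCL1, and 0.54 CPM in Eµ-TCL1. The 3 Eµ-PRMT5/TCL1 mice lay above all the others. Of all tested genes, 1.35% likewise had every Eµ-PRMT5/TCL1 mouse above every Eµ-PRMT5 mouse. The log2 fold change of Tnf over Eµ-PRMT5 was 1.08 (SE 0.55, adjusted p = 1.000, edgeR). The level in Eµ-TCL1 rests on 2 counts, so no fold change over it is given. Cd69, an early activation marker, was at 209.4, 211.8, 77.7 and 75.8 CPM in Eµ-PRMT5, 76.7, 80.1 and 66.4 CPM in Eµ-PRMT5/TCL1, and 103.3 CPM in Eµ-TCL1, so that Eµ-PRMT5 mice 1 and 2 stood above the rest and mice 3 and 4 lay among the double transgenic mice. Cd36, a scavenger receptor that assists Tlr2 and Tlr6, was at 173.6 CPM in Eµ-TCL1, above 28.2 to 150.2 CPM in Eµ-PRMT5 and 10.7 to 77.8 CPM in Eµ-PRMT5/TCL1 mice, with a log2 fold change of -2.06 (SE 0.91, adjusted p = 0.778, edgeR) for Eµ-PRMT5/TCL1 against it.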

How the data were processed

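RNA-seq libraries of splenic B cells from 8 mice were used. The deposited values are counts of reads on each gene, neither normalized nor pooled by the authors. The submitters' processing notes name featureCounts and Subread, GRCm38 and DESeq2 1.20.0. The labels of these samples describe a stranded kit, whereas the study's methods describe low-input libraries from preamplified cDNA for diseased mice of these genotypes, processed with the CLEAR workflow. Whether counting used strand, and the aligner of that method, are not given in the sources used here, so reads of overlapping genes on opposite strands may not be told apart. Cells holding NA were not read as 0, since other cells hold 0.

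Genes counted in all 8 libraries (14072 symbols) were fitted with edgeR 4.0.16 in R 4.3.3 (TMM, expression filter by group leaving 13173 genes, 1 model over the 3 groups, quasi-likelihood test, Benjamini-Hochberg adjustment). As in the study, calls required an adjusted p below 0.05 and more than a 4-fold change. With DESeq2 and more than 1 Eµ-TCL1 mouse, the study did report genes that differed between Eµ-PRMT5 and Eµ-TCL1 cells. Standard errors are the log2 fold change divided by the square root of the F statistic. Tlr9 was fitted in the 7 libraries with a value, and mice 1 to 3 were fitted without the block, both chosen after seeing the data. The biological coefficient of variation was 0.483. The code was tested on simulated data. There, edgeR recovered fewer genes against the Eµ-TCL1 mouse than was first required. The requirement was then limited to the replicated groups and to larger fold changes. Genes that differ from the Eµ-TCL1 mouse can therefore go uncalled. Genomic positions and exon lengths are from GENCODE vM21 (GRCm38), and figures were drawn in Python 3.11.15.

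Groups follow the genotype labels. A gene of the B cell marker list is not reported here and was left out of its sums. The members, the pathway and marker lists and the tests were chosen with earlier results of these data known. All members are named, with 18 genes of the pathway list and any other list gene at an unadjusted p under 0.05. Alternatives were DESeq2 1.42.0, 3 other scalings, no filter, a minimum of 10 counts in each library, NA as 0, only the groups compared, each mouse left out, and the replicate number as a block. Depth was 3356297 to 10252426 counts, and a level of 3 counts (0.29 to 0.89 CPM) was taken as the floor; intervals and floors cover counting error only.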

Additional observations from a re-analysis of the deposited data

Results flagged for a closer look

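Among the 28 member and named genes examined within the 4 Eµ-PRMT5 mice, a single mouse stood far from the other 3 (Dixon's test at 95%) for 2 genes, where chance gives about 1.4. Ly86, the partner of Cd180, was at 437.9 CPM in Eµ-PRMT5 mouse 3 and at 204.1 to 234.4 CPM in the others. Irak1, the kinase that Irak4 phosphorylates, was at 292.7 CPM in Eµ-PRMT5 mouse 1 and at 89.1 to 117.5 CPM in the others.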

How the results depend on the processing

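By edgeR, 0 genes passed the thresholds in each of the 3 comparisons under every edgeR setting tried, whereas DESeq2 called 4 genes for Eµ-PRMT5/TCL1 against Eµ-PRMT5, 18 for Eµ-PRMT5 against the Eµ-TCL1 mouse and 16 for Eµ-PRMT5/TCL1 against it, none of them a member. Of 426 member fold changes under other settings, 403 kept their sign and 23 did not, and none passed the adjusted threshold. Outside the left-out mice, the sign turned for Tlr6 (0.32 with the replicate block, 0.18 in the same mice unblocked), Cd180 (0.0029 with NA as 0) and Tlr2 (0.18 with NA as 0, Eµ-PRMT5 against the Eµ-TCL1 mouse), and for Unc93b1 as given above (-0.077 and -0.21). With 1 mouse left out, values between the replicated groups ran from -0.92 to 0.0002 for Tlr1, -0.50 to 0.18 for Tlr6, -0.59 to 0.21 for Cd180 and -0.17 to 0.40 for Myd88. Against the Eµ-TCL1 mouse they ran from -0.41 to 0.0524 (Tlr2, Eµ-PRMT5), and for Eµ-PRMT5/TCL1 from -0.0675 to 1.22 (Tlr2), -0.23 to 0.57 (Cd180) and -0.25 to 0.14 (Unc93b1). The cause was not tested. Mice that share a number in the labels correlated by -0.02, 0.15 and 0.16 in their departures from the group means, so the numbers were not taken to pair them, and with the block 826 genes had an unadjusted p under 0.05, beside 742 in the same mice unblocked and 286 with all mice, and 0 were called. The count of 286 was 771 without Eµ-PRMT5 mouse 3, 760 without mouse 4 and 149 without Eµ-PRMT5/TCL1 mouse 2, that of 893 was 2119 without Eµ-PRMT5 mouse 3, and that of 802 was 1217 without it, 520 without Eµ-PRMT5/TCL1 mouse 1 and 404 without mouse 2. With only the groups compared, they were 395 and 2359. Scaling moved the share of these genes that were higher, for Eµ-PRMT5 against the Eµ-TCL1 mouse, from 28.9% to between 13.9% (library size only) and 40.1% (DESeq2 size factors), for Eµ-PRMT5/TCL1 against it from 28.8% to between 14.9% and 38.7%, and between the replicated groups from 44.1% to 57.4% (upper-quartile). The DESeq2 test, with its own scaling, gave 57.4% and 51.2% in the first 2 of these. The median log2 fold change of all genes moved from 0.04 to -0.21 and from -0.07 to -0.30 with library size only in the comparisons with the Eµ-TCL1 mouse. The limits are 1 Eµ-TCL1 mouse, the missing values, Tlr9 counts under 30, and the shared sequence of Tlr1 and Tlr6.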
